A study of Mus musculus with 12 samples.

Results

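Liver gene expression was compared between 6 arrays from mice on a high-fat diet and 6 arrays from mice on a low-fat diet, with the presence of a dietary extract held as an additive factor. The contrast used 12 of the 12 arrays of the series, and membership followed the diet label alone, not any measured value. It asks which liver transcripts differed with dietary fat on average over both extract states, and it assumes the same diet effect in both.

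All mice were male C57BL6, 6 weeks old at the start and 18 weeks old at death, and ate their diet ad libitum for 12 weeks. The low-fat diet gave 10% of its energy as fat and the high-fat diet 45%. Each diet was fed plain (control) or with 0.5% (w/w) MSX, a phenol-enriched maple syrup extract, so that each of the 2 diets had a control group and an MSX group, 4 groups of 3 biological replicates in all. Total RNA from liver was hybridised to Affymetrix mouse arrays, 1 array per sample, and no label gives body weight, liver fat or fasting state.

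The liver takes up dietary fat, makes fatty acids and cholesterol of its own, and stores or exports both. Genes of cholesterol synthesis are switched on by SREBP2 when sterol in the endoplasmic reticulum is low, whereas SREBP1c, which responds to insulin, drives genes of fatty acid synthesis. Diets rich in fat are known to lower hepatic fatty acid synthesis relative to diets rich in carbohydrate, and to favour storage of triglyceride in lipid droplets.

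Array medians lay between 4.68 and 4.75 on the deposited log2 scale, and array pairs correlated with r from 0.973 to 0.984 over all probe sets. Hepatocyte markers were abundant in all arrays, as the liver label requires: albumin (Alb) had a mean of 13.9 in both diet arms, near the highest value on any array, 14.1. Of the variance summed over 22180 genes, diet took 9.70%, the extract 13.4%, their interaction 8.77% and the residual 68.1%. If no term had any effect, each term of 1 degree of freedom out of 11 would take 9.09% on average and the residual 72.7%.

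No gene passed the threshold for the common diet effect (0 of 22180, or 0%, at a Benjamini-Hochberg adjusted p under 0.05 in limma's additive model, with a lowest adjusted p of 0.201). At an unadjusted p under 0.05, 1277 genes (5.76%) were counted, 623 higher and 654 lower on the high-fat diet, where 1109 would be counted with no effect at all. Only 14 genes differed by more than 1 on the log2 scale, and 132 by more than 0.5. The arms were fully separated for a few genes: all 6 high-fat arrays lay above all 6 low-fat arrays for 34 (0.153%) and below them for 38 (0.171%).

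The diet effect was also measured within each extract state, from arrays that the states do not share. Among control arrays, 4 genes passed the threshold (0.018%): Cyp51, Sqle and Themis rose and Igfbp2 fell. Among MSX arrays none passed (0%, lowest adjusted p 0.466 in limma, 1012 genes at an unadjusted p under 0.05), and neither did any gene for the difference between the states (0%, lowest adjusted p 0.664, 1130 at an unadjusted p under 0.05). Across the 22180 genes, which are not independent replicates, the diet effects of the states correlated with r = 0.051 and had the same sign in 50.9%. Of 133 genes at an unadjusted p under 0.05 in both states, 92 (0.415% of all genes) differed in the same direction, 48 higher and 44 lower, and 41 (0.185%) in opposite directions.

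**Figure D1:**
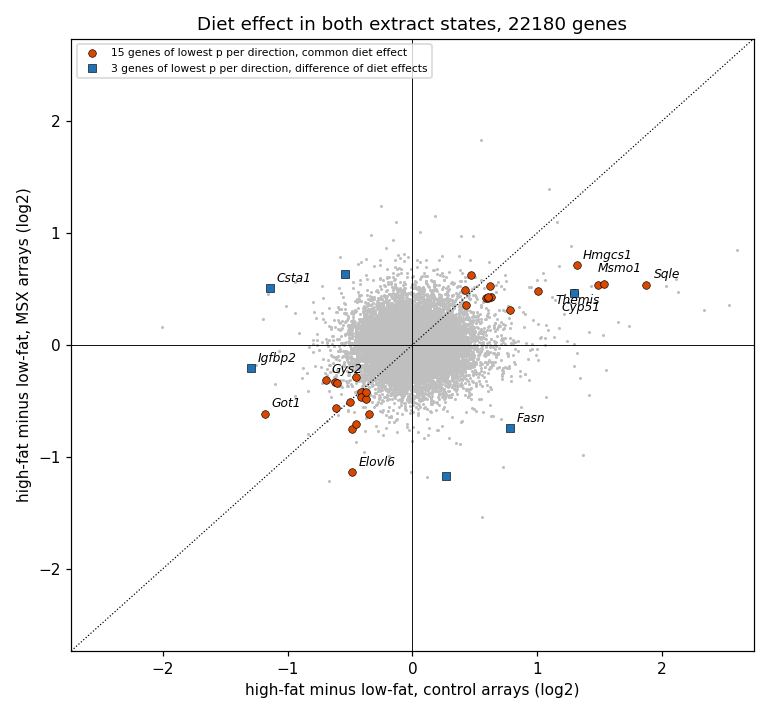
Each point is 1 of 22180 genes, with the log2 difference of high-fat and low-fat means (n = 3 arrays each) among control arrays on the x axis and among MSX arrays on the y axis, and a dotted line of equality. The cloud has no slope (r = 0.051), the sterol genes Sqle, Cyp51, Hmgcs1 and Msmo1 lie to the right and above 0, and Got1, Gys2 and Elovl6 lie below 0 on both axes.

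The 15 genes of lowest p in each direction, without provisional names, are described below as measurements, since none passed the threshold (adjusted p from 0.201 to 0.355). Their absolute log2 fold changes, high-fat minus low-fat, ran from 0.37 to 1.21. In 13 of the 30 the diet arms did not overlap, a separation that a choice by lowest p favours. Over all genes, the high-fat arrays lay apart above for 0.153% and below for 0.171%. The estimate was larger among control arrays for 19 of the 30. For 6 the difference between the states had an unadjusted limma p under 0.05, as for 1130 of all 22180 genes.

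**Figure D2:**
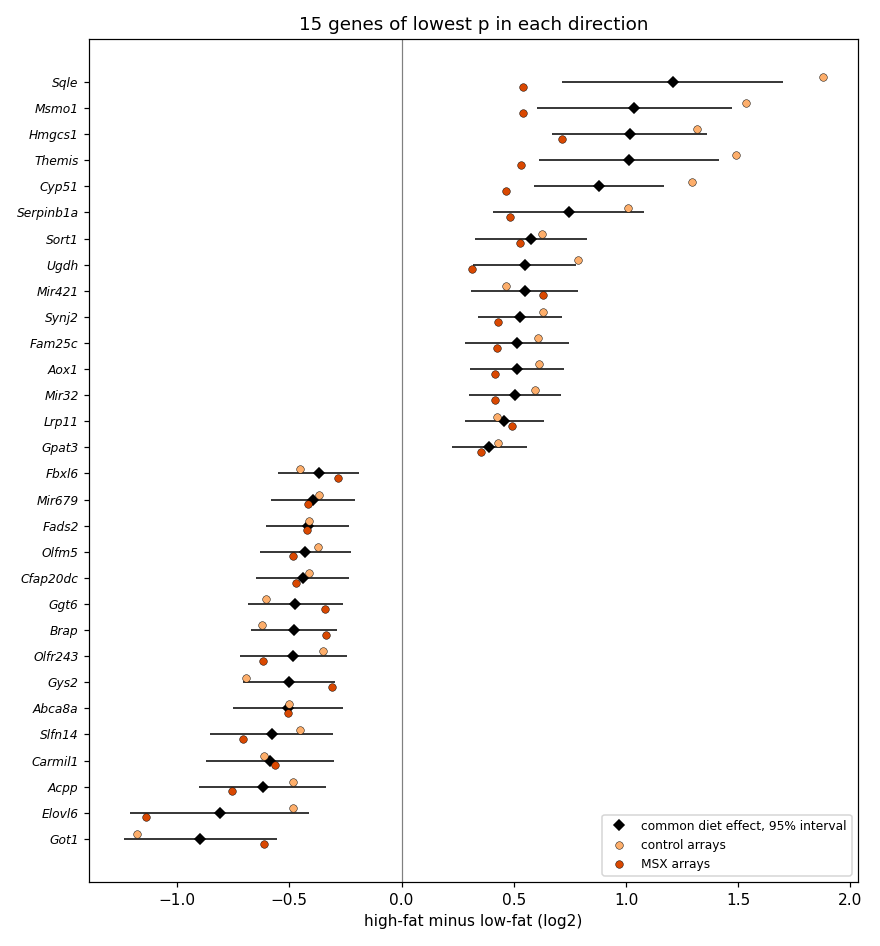
Log2 difference of high-fat and low-fat arrays for the 15 genes of lowest p in each direction: diamonds are the common effect over 12 arrays with limma's 95% interval, and circles are the estimates within control arrays and within MSX arrays. The circles of Fads2, Abca8a and Carmil1 nearly coincide, whereas those of Sqle are 1.88 and 0.54.

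Cholesterol synthesis held Cyp51 and Hmgcs1, the 2 genes with the lowest p-values of the contrast. Of 16 measured genes of the pathway, 15 had a positive log2 fold change, against 50.0% of all genes, and the median was 0.27, against 0.00003. At an unadjusted p under 0.05 the list counted 9 genes (56.2%, against 5.76% of all genes), all higher on the high-fat diet, and 0 passed after adjustment over all genes. Leaving out any 1 array left 14 or 15 positive genes, 7 to 10 at an unadjusted p under 0.05 and a median from 0.24 to 0.33.

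Proximal promoters of 3 sterol genes with low p-values are shown because these genes had the same direction and because sterol-regulated promoters carry known factor motifs. Each sequence is the 250 bases before a transcription start from RefSeq on GRCm38.p6, 5′ to 3′ on the gene's strand. The motifs searched were the sterol response element TCACNCCAC and the NF-Y box CCAAT, on both strands (as GTGGNGTGA and ATTGG on the reverse strand), and matches are in capitals. The windows are chr13:119690101-119690350 (plus strand) for Hmgcs1, chr5:4104698-4104947 (minus strand) for Cyp51 and chr8:64733579-64733828 (minus strand) for Msmo1.
Hmgcs1: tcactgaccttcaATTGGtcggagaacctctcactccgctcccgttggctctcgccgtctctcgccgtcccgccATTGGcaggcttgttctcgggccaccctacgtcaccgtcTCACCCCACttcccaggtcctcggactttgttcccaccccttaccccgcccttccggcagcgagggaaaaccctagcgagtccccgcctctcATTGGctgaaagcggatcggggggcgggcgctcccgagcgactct
Cyp51: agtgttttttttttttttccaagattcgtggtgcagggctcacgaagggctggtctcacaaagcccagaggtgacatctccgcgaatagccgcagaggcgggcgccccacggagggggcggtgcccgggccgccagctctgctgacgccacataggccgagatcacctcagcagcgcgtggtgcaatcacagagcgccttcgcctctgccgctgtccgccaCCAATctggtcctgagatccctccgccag
Msmo1: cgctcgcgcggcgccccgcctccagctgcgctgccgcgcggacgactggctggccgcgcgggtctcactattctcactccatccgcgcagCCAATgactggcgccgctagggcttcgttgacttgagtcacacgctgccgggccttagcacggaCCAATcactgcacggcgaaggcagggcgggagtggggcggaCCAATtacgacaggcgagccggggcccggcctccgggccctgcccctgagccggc

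The sterol response element matched once, in Hmgcs1, 137 bases before the start. It was present in 1 of 13 measured genes of the pathway with a promoter entry and in 1.22% of all 27025 genes of the table. An NF-Y box was present in 13 of these 13 genes, with 3 matches in Hmgcs1, 1 in Cyp51 and 3 in Msmo1, and in 37.5% of all genes. The E-box CACGTG was found in 3 of the 13 genes and in 6.86% of all genes. A match says only that these letters are in the window. A lack of a match says only that this exact pattern is absent, because variant forms were not searched.

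Cyp51, the lanosterol demethylase, had log2 values of 6.15, 6.21 and 6.02 in low-fat control, 7.28, 7.33 and 7.10 in low-fat MSX, 7.36, 7.48 and 7.43 in high-fat control and 7.85, 7.69 and 7.58 in high-fat MSX arrays. The low-fat control arrays stood below all others, and every high-fat array lay above every low-fat array. The common log2 fold change was 0.88 (SE 0.14, limma adjusted p = 0.201), a 1.84-fold difference with a 95% interval from 1.51 to 2.25. It was 1.29 among control arrays (adjusted p = 0.000893 in limma) and 0.47 among MSX arrays (adjusted p = 0.944), with an unadjusted p of 0.0002 for the difference between the states in the same limma fit.

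Hmgcs1 encodes the cytosolic HMG-CoA synthase at the entry to the pathway. Its log2 values were 8.35, 8.12 and 8.58 in low-fat control, 9.09, 9.07 and 8.30 in low-fat MSX, 9.80, 9.46 and 9.74 in high-fat control and 9.71, 9.33 and 9.56 in high-fat MSX arrays. The arms did not overlap, and the third low-fat MSX array lay with the low-fat controls rather than with the other two of its group. The common log2 fold change of 1.02 (SE 0.16, limma adjusted p = 0.201) corresponds to 2.02-fold, with a 95% interval from 1.59 to 2.57. Of the sterol genes named, it had the largest estimate among MSX arrays, 0.72, beside 1.32 among control arrays.

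Sqle, squalene epoxidase, had values of 4.95, 4.99 and 4.56 in low-fat control, 6.43, 6.40 and 5.84 in low-fat MSX, 6.82, 6.41 and 6.92 in high-fat control and 7.13, 6.42 and 6.74 in high-fat MSX arrays. The lowest high-fat arrays lay at the level of the highest low-fat MSX arrays, so the arms overlapped, while the low-fat controls lay apart from all others. Its log2 fold change of 1.21 (SE 0.23, limma adjusted p = 0.241) was made up of 1.88 among control arrays (adjusted p = 0.00519) and 0.54 among MSX arrays (adjusted p = 0.999).

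Msmo1, the sterol C4-methyl oxidase, ran from 5.62 (median 6.55) to 7.60 on the low-fat diet and from 7.57 (median 7.67) to 7.94 on the high-fat diet. The overlap came from 1 low-fat MSX array at 7.60. Its log2 fold change was 1.04 (SE 0.20), with 1.53 among control and 0.54 among MSX arrays.

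Farnesyl diphosphate synthase (Fdps), named here after its values were seen, showed a different split. It had a log2 fold change of 1.30 among control arrays and -0.19 among MSX arrays (unadjusted limma p of the difference 0.00045), which average to 0.55. In the MSX arrays of the low-fat diet Fdps was at 8.01, 8.41 and 7.33, around the range of the high-fat arrays, 7.43 to 8.05, and in low-fat controls at 6.32 to 6.57. The pathway's list value, which is the median over the 16 genes of each gene's deviation from its mean over the 12 arrays, was -0.40, -0.34 and -0.51 in low-fat control arrays and between -0.15 and 0.34 in the other 9. The list median was accordingly 0.44 among control and 0.13 among MSX arrays.

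The list of the pathway's regulators had a smaller median than the pathway itself. Of 11 measured genes of sterol sensing and uptake, 8 were above 0 with a median of 0.07, and 3 (27.3%, against 5.76% of all genes) were at an unadjusted p under 0.05. The median was 0.03 without the third and 0.12 without the second low-fat MSX array. Those 3 were Srebf2, the gene of SREBP2, at 0.32 (SE 0.11), Insig1, which holds SREBP in the endoplasmic reticulum, at 0.54 (SE 0.19), and the sterol carrier Stard4 at 0.32 (SE 0.13). Adjusted p-values in limma were from 0.712 to 0.798. All 3 differed more among control than among MSX arrays: Srebf2 by 0.48 and 0.15, Insig1 by 1.02 and 0.07 and Stard4 by 0.48 and 0.15. Cyp7a1, the rate-limiting enzyme of bile acid synthesis, differed by 0.02 with a 95% interval from -0.72 to 0.75, and its values ran from 9.22 to 11.49 within the low-fat arm alone.

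**Figure D3:**
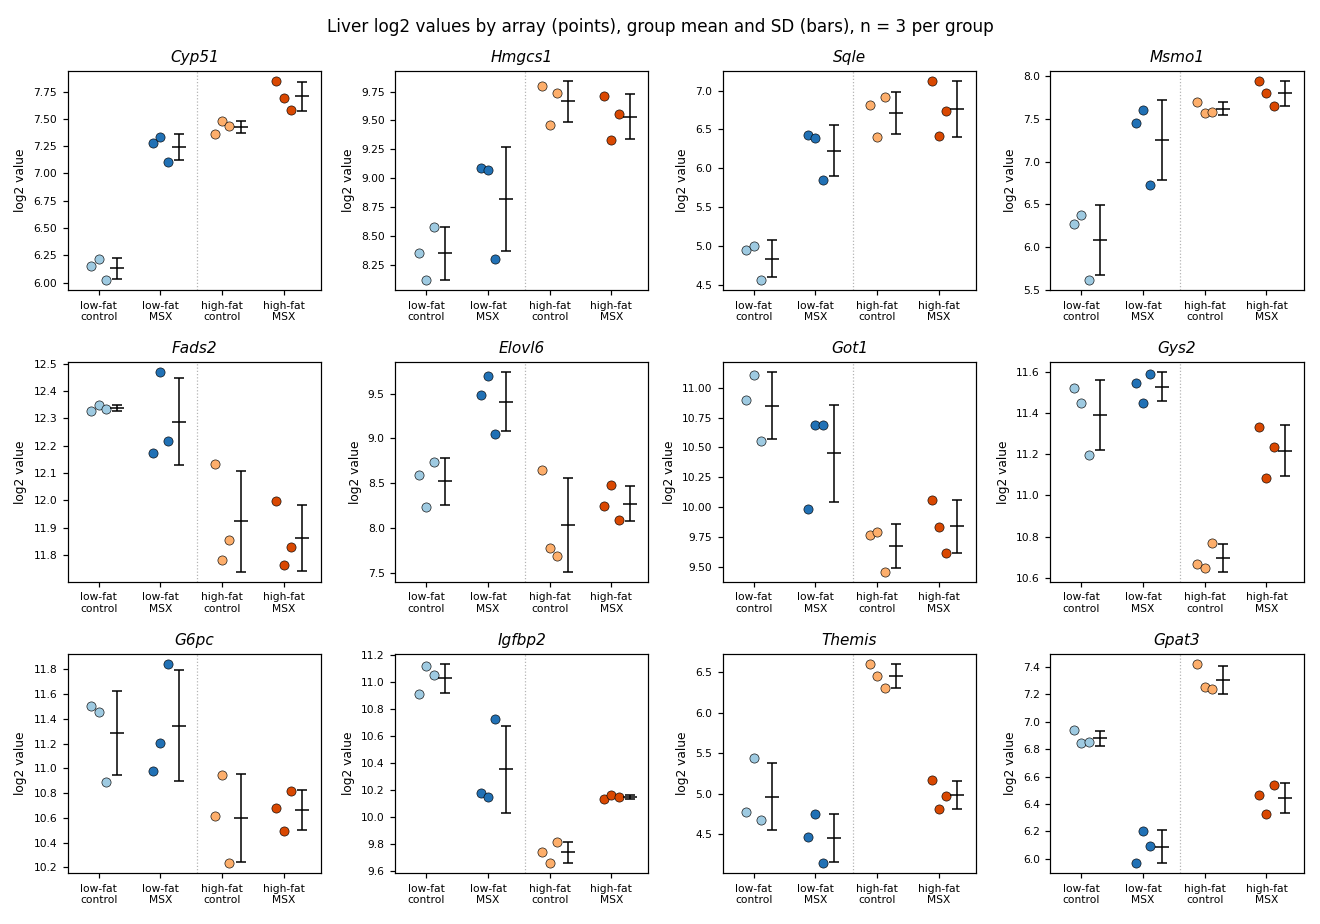
Deposited log2 values of 12 genes in each array, by group (4 groups of 3 arrays), with the group mean and SD beside the points and a dotted line between diets. In Cyp51, Hmgcs1 and Fads2 no high-fat point lies among the low-fat points, and in Igfbp2 and Themis the high-fat controls stand apart from the other 9 arrays.

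Genes of fatty acid synthesis and desaturation had mostly negative values, and these came mainly from MSX arrays. Of 19 measured genes 15 had a negative log2 fold change (median -0.19), and 6 (31.6%, against 5.76% of all genes) were lower at an unadjusted p under 0.05, none after adjustment. Among MSX arrays the median was -0.42 and 17 of 19 were negative, while among control arrays it was 0.05 and 12 were positive. Leaving out 1 array moved the common median between -0.29 and -0.10 and the count of genes lower at an unadjusted p under 0.05 between 2 and 7. The count was 2 without the second low-fat MSX or second high-fat MSX array, and 3 without the first high-fat MSX array.

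Fads2, the delta-6 desaturase of polyunsaturated fatty acid synthesis, had an even effect over the states. Its values were 12.33, 12.35 and 12.33 in low-fat control, 12.17, 12.47 and 12.22 in low-fat MSX, 12.13, 11.78 and 11.85 in high-fat control and 12.00, 11.76 and 11.83 in high-fat MSX arrays. All high-fat arrays lay below all low-fat arrays. The log2 fold change was -0.42 (SE 0.09, limma adjusted p = 0.313), or 0.748-fold with a 95% interval from 0.658 to 0.851, and it was -0.41 among control and -0.42 among MSX arrays.

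Elovl6, which elongates palmitate to stearate, had the second largest negative estimate of the 30 genes, -0.81 (SE 0.19, limma adjusted p = 0.355). Low-fat values ran from 8.23 (median 8.90) to 9.69 and high-fat values from 7.69 (median 8.17) to 8.64, and the low-fat arrays within the high-fat range were controls. The estimate was -0.48 among control and -1.14 among MSX arrays. Srebf1, the gene of SREBP1, was at -0.37 (SE 0.15) and Pnpla3, a lipid droplet protein and SREBP1c target, at -0.26 (SE 0.11).

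For Fasn, fatty acid synthase, the common estimate of 0.02 (95% interval -0.51 to 0.55) averages opposite differences. It was 0.78 among control and -0.74 among MSX arrays, and the unadjusted limma p of the difference was 0.00016 (adjusted p = 0.664). The low-fat MSX arrays were high, at 9.37, 9.74 and 9.18, as was 1 high-fat control array at 9.19, and the low-fat controls had its lowest values, 7.92, 7.66 and 8.10. The sign of the common estimate was negative without any 1 of the 6 control arrays, at values from -0.18 to -0.01. Scd1, the stearoyl-CoA desaturase, was at 0.13 and -0.74 in the same order, with a common value of -0.30 (95% interval -0.63 to 0.02).

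Of the genes of glucose output, G6pc and Pck1 had similar estimates in both states. G6pc, the glucose-6-phosphatase that ends gluconeogenesis, had values of 11.51, 11.46 and 10.89 in low-fat control, 10.98, 11.21 and 11.85 in low-fat MSX, 10.61, 10.95 and 10.23 in high-fat control and 10.68, 10.49 and 10.81 in high-fat MSX arrays. Its arms overlapped only through 1 high-fat control array at 10.95. The log2 fold change was -0.68 (SE 0.16, limma adjusted p = 0.381), and it was -0.69 among control and -0.68 among MSX arrays. Pck1, which commits carbon to gluconeogenesis, was at -0.31 (SE 0.09), with -0.31 and -0.30 in the 2 states.

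Gys2, the liver glycogen synthase, ran from 11.20 (median 11.49) to 11.59 on the low-fat diet and from 10.65 (median 10.93) to 11.33 on the high-fat diet. Its log2 fold change was -0.50 (SE 0.10, limma adjusted p = 0.241), with -0.69 among control and -0.31 among MSX arrays. Pgm2, a phosphoglucomutase, was the only gene of the list higher at an unadjusted p under 0.05, at 0.31 (SE 0.11). Over the 13 measured genes of gluconeogenesis and glycogen, 7 were below 0 (median -0.15), 4 were lower and 1 higher at an unadjusted p under 0.05 (38.5%, against 5.76% of all genes). The median moved to -0.04 without the second low-fat control and to -0.07 without the second high-fat MSX array.

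Amino acid breakdown and the urea cycle had mostly negative values. Of 21 measured genes 17 were below 0 with a median of -0.14, and 7 (33.3%, against 5.76% of all genes) were lower at an unadjusted p under 0.05, none after adjustment. The count was 4 to 8 as single arrays were left out, 4 without the first low-fat control or the third high-fat control array. Got1, the cytosolic aspartate aminotransferase, had the largest negative estimate of the 30 genes. Its values were 10.90, 11.10 and 10.55 in low-fat control, 9.98, 10.69 and 10.69 in low-fat MSX, 9.76, 9.79 and 9.46 in high-fat control and 10.06, 9.83 and 9.62 in high-fat MSX arrays. The first low-fat MSX array was the only low-fat array among the high-fat values. The log2 fold change was -0.90 (SE 0.16, limma adjusted p = 0.241), a 0.537-fold difference with a 95% interval from 0.425 to 0.68, and without that array it was -1.03 and passed the threshold (adjusted p = 0.0379).

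For 2 of the 21 genes of this list, Hgd and Cps1, all high-fat arrays lay below all low-fat arrays, as for 0.171% of all genes. Hgd, which opens the ring of homogentisate in tyrosine breakdown, was between 11.48 and 11.68 on the low-fat diet and between 11.17 and 11.37 on the high-fat diet, a log2 fold change of -0.29 (SE 0.07, limma adjusted p = 0.49). Cps1, the first enzyme of the urea cycle, was between 12.77 and 12.90 and between 12.21 and 12.68, a log2 fold change of -0.33 (SE 0.09, limma adjusted p = 0.508). Asl, argininosuccinate lyase, was at -0.39 (SE 0.11) with -0.36 among control and -0.42 among MSX arrays. Periportal hepatocyte genes, a list that shares members with this one, were at a median of -0.11 over 10 genes, and pericentral genes at 0.11 over 13. As single arrays were left out, the periportal median ran from -0.12 to -0.09. The pericentral median was 0.05 without the second low-fat MSX and 0.14 without the third high-fat control array.

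In the insulin and IGF axis 17 of 20 measured genes were below 0, with a median of -0.08. Of the list, 2 (10.0%) were lower at an unadjusted p under 0.05, near the 5.76% of all genes, and 1 to 4 as single arrays were left out, 4 without the second high-fat control array. Igfbp2, which encodes a binding protein for insulin-like growth factors, had values of 10.91, 11.12 and 11.06 in low-fat control, 10.18, 10.15 and 10.73 in low-fat MSX, 9.74, 9.66 and 9.81 in high-fat control and 10.13, 10.16 and 10.15 in high-fat MSX arrays. It was highest in low-fat controls and lowest in high-fat controls, and the MSX arrays of both diets lay between. Its common log2 fold change of -0.75 (SE 0.18, limma adjusted p = 0.373) joined -1.29 among control arrays (adjusted p = 0.00519) and -0.21 among MSX arrays, with an unadjusted p of 0.00014 for the difference in limma. Igf1, the growth factor itself, was at -0.26 (SE 0.12).

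The additive model counts a difference between the extract states as residual spread, which widens the error of such genes. With a separate mean for each of the 4 groups and the average of both diet effects, the estimates are the same and 5 genes passed the threshold in limma. These were Cyp51 (SE 0.08 in place of 0.14, adjusted p = 0.00142), Sqle (adjusted p = 0.0224), and Hmgcs1, Themis and Igfbp2 (each with adjusted p = 0.0369). At an unadjusted p under 0.05 that model counted 1318 genes, against 1277.

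Genes of triglyceride assembly and storage gave mixed values. Of 14 genes of glycerolipid synthesis 5 were above 0 (median -0.02), with 3 higher and 1 lower at an unadjusted p under 0.05 (28.6%, against 5.76% of all genes). Gpat3, an acyltransferase at the first step, had estimates of 0.43 among control and 0.36 among MSX arrays (difference -0.07, SE 0.16). It was 6.84 to 6.94 and 7.24 to 7.42 in low-fat and high-fat controls, and 5.97 to 6.20 and 6.33 to 6.54 in low-fat and high-fat MSX arrays. The diets were separated within each state, and the common log2 fold change was 0.39 (SE 0.08, limma adjusted p = 0.258). A second, dimmer probe set of Gpat3 gave 0.00 (SE 0.16). Gpat4, of the same enzyme family, was at -0.36 (SE 0.09), the acyltransferase Mogat1 at 0.35 (SE 0.12) and Gpam at 0.27 (SE 0.12).

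Of 17 lipid droplet genes 11 were above 0 (median 0.06), and 4 (23.5%, against 5.76% of all genes) were higher at an unadjusted p under 0.05. The median was 0.04 without the first low-fat control or the first high-fat control array and 0.10 without the second high-fat MSX array. Fitm1, a protein that partitions triglyceride into droplets, was at 0.45 (SE 0.11), but its dimmer probe set gave -0.06 (SE 0.23). Pparg, the nuclear receptor of fat storage, was at 0.60 (SE 0.15), with 0.85 among control and 0.34 among MSX arrays. The droplet coat genes Plin4 and Plin2 were at 0.62 (SE 0.17) and 0.32 (SE 0.13), and the estimates for Plin4 were 1.07 and 0.18 in the control and MSX states. Cd36, a fatty acid translocase, was at 0.59 (SE 0.20) and the droplet fusion gene Cidec at 0.15 (SE 0.30). The limma adjusted p of these genes was between 0.373 and 0.987.

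**Figure D4:**
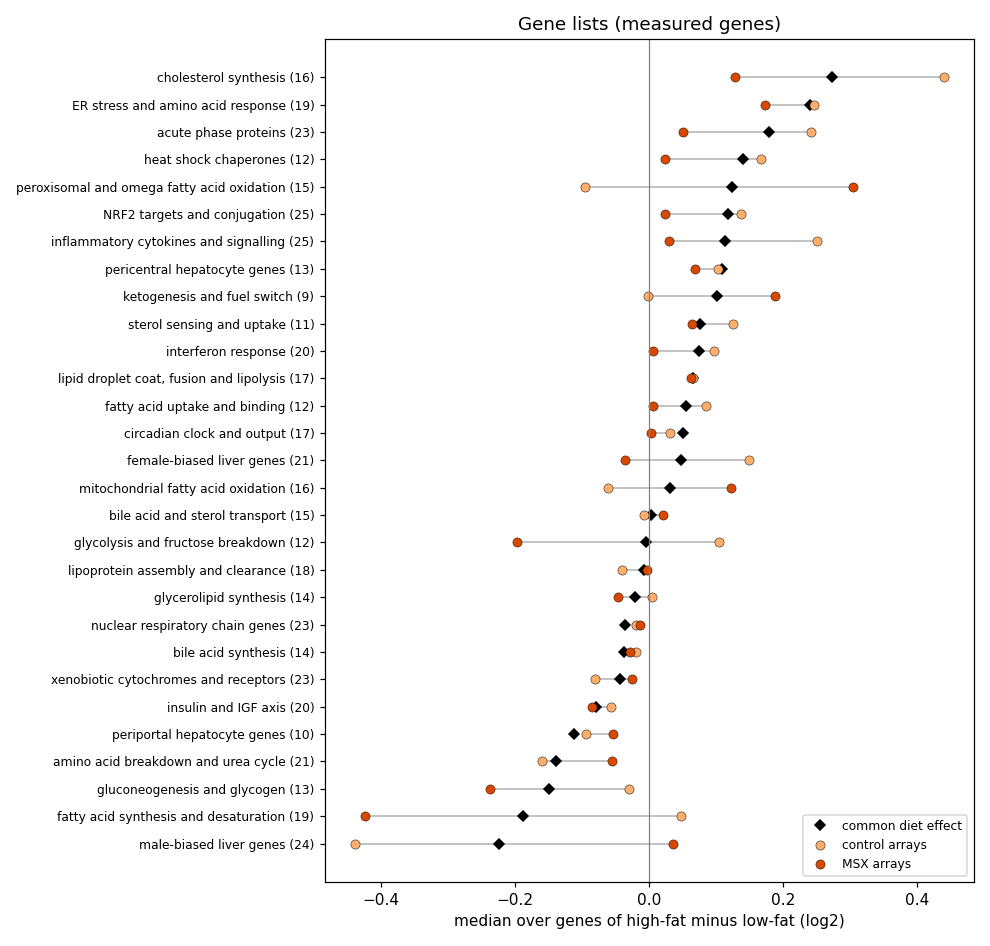
Median log2 difference of high-fat and low-fat arrays over the measured genes of each of 29 pathway lists (number of genes in parentheses), for the common effect (diamonds), control arrays and MSX arrays (circles), with a grey line joining the states. Cholesterol synthesis lies at 0.27 and fatty acid synthesis at -0.19, and the lists of male-biased genes and of peroxisomal oxidation have their 2 circles on opposite sides of 0.

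Stress responses of the endoplasmic reticulum were above 0 almost throughout. Of 19 measured genes 18 had a positive log2 fold change, with a median of 0.24, and the medians of the states were close, 0.25 among control and 0.17 among MSX arrays. At an unadjusted p under 0.05 there were 3 (15.8%, against 5.76% of all genes): the chaperone partner Dnajb9 at 0.38 (SE 0.12), the secretory pathway protein Creld2 at 0.57 (SE 0.24) and Psat1, an enzyme of serine synthesis induced by amino acid shortage, at 0.31 (SE 0.11). Limma's adjusted p was from 0.692 to 0.801. The list values of the arms overlapped, at -0.24 to 0.07 on the low-fat and -0.01 to 0.15 on the high-fat diet, with the third low-fat control array the highest of its arm. As single arrays were left out the median moved between 0.14 and 0.26 and the count between 2 and 7, with 7 without the third low-fat control array, 5 without the first low-fat MSX or first high-fat MSX array, and 0.14 without the second high-fat MSX array.

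Acute phase proteins, which hepatocytes secrete in inflammation, were above 0 for 22 of 23 measured genes, with a median of 0.18 and 4 (17.4%, against 5.76% of all genes) at an unadjusted p under 0.05. That count was 3 to 10 as single arrays were left out, 10 without the second and 8 without the first high-fat MSX array. The differences were larger among control arrays (median 0.24) than among MSX arrays (0.05), a difference that was not tested for the list. Lcn2, an iron-sequestering lipocalin, was at 1.30 (SE 0.46), and its values ran from 6.09 (median 7.85) to 8.82 on the low-fat diet and from 7.66 (median 9.12) to 10.03 on the high-fat diet. Orm3, an orosomucoid with close paralogues that can share probes, was at 1.28 (SE 0.35), with 2.03 among control and 0.53 among MSX arrays. Steap4 was at 0.56 (SE 0.20) and Serpina3n, of a multigene family, at 0.24 (SE 0.11). The limma adjusted p of these 4 genes ran from 0.554 to 0.836, and all 4 had overlapping arms.

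Among 25 genes of inflammatory cytokines and signalling, 18 were above 0 with a median of 0.11, and 6 (24.0%, against 5.76% of all genes) were higher at an unadjusted p under 0.05. Without the first or second low-fat control or the first high-fat control array the count was 3, and without the second high-fat MSX array it was 8. The median was 0.17 without the third low-fat control array. Cxcl1, a neutrophil-attracting chemokine, ran from 5.28 (median 5.82) to 6.20 on the low-fat diet and from 5.74 (median 6.84) to 7.30 on the high-fat diet. Of the high-fat arrays, 1 of the MSX group at 5.74 lay inside the low-fat range. The log2 fold change was 0.94 (SE 0.22, limma adjusted p = 0.355), with 1.18 among control and 0.70 among MSX arrays. The chemokine Cxcl10 was at 0.59 (SE 0.17), the cytokine feedback inhibitor Socs3 at 0.48 (SE 0.16) and the adhesion molecule Icam1 at 0.31 (SE 0.12).

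Immune and matrix markers also had positive medians, as did every other marker list except that of hepatocytes (-0.02). Adipocyte, erythroid and pancreas acinar markers were each at 0.07, cholangiocyte markers at 0.06 and endothelial markers at 0.05. Liver is a mixture of cells, and in bulk RNA more cells of a type and more RNA per cell cannot be told apart. Macrophage and Kupffer cell markers were above 0 for 16 of 19 genes (median 0.16). None was at an unadjusted p under 0.05, against 5.76% of all genes. Their list values were from -0.45 to 0.13 on the low-fat and from -0.45 to 0.56 on the high-fat diet. Stellate cell and matrix markers were above 0 for 16 of 21 genes (median 0.14), with medians of 0.48 among control and -0.21 among MSX arrays. At an unadjusted p under 0.05 there was 1 matrix marker (4.76%, against 5.76% of all genes). The first high-fat control array had the highest value of both lists, 0.59 for matrix and 0.56 for macrophage markers, and without it their medians were 0.01 and 0.02. Leaving out other arrays moved them upward. Without the third high-fat control array, whose macrophage value of -0.45 was the lowest of its arm, the macrophage median was 0.27. Then 19 of 19 genes were above 0. Of these, 5 were at an unadjusted p under 0.05, against 1230 of 22180 genes in that fit. Without the third low-fat MSX array the matrix median was 0.25, with 19 of 21 genes above 0, and without the third high-fat MSX array it was 0.23. The matrix median was 0.08 without the second low-fat control and 0.09 without the third high-fat control array, and the macrophage median was 0.11 without the first low-fat control and 0.10 without the second high-fat control array. Without the first high-fat control array the acute phase median was 0.19 and the inflammatory median 0.08. Whether cell composition had a part in the inflammatory values was not tested.

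Detoxification and antioxidant genes were above 0 for 20 of 25 members of the NRF2 and conjugation list (median 0.12). At an unadjusted p under 0.05 there were 5 (20.0%, against 5.76% of all genes), and 3 to 7 as single arrays were left out. The 3 were reached without the first or second low-fat control or the first or second high-fat control array, and without the third low-fat MSX array the median was 0.06. Ugdh, which makes UDP-glucuronate for conjugation, ran from 9.46 (median 9.62) to 9.81 on the low-fat diet and from 9.85 (median 10.12) to 10.62 on the high-fat diet, without overlap. Its log2 fold change was 0.55 (SE 0.11, limma adjusted p = 0.258). The glutamate-cysteine ligase subunit Gclm was at 0.23 (SE 0.08), the epoxide hydrolase Ephx1 at 0.30 (SE 0.10) and heme oxygenase Hmox1 at 0.42 (SE 0.17).

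Aldehyde oxidase Aox1 was in none of the pathway lists but among the 15 genes of lowest p. It ran from 7.95 (median 8.19) to 8.37 on the low-fat diet and from 8.52 (median 8.59) to 8.89 on the high-fat diet. The arms did not overlap, and its log2 fold change was 0.51 (SE 0.10, limma adjusted p = 0.241), 0.61 among control and 0.42 among MSX arrays. Its paralogue Aox3, chosen after its values were seen, was at 0.48 (SE 0.11), with 0.38 and 0.57 in the states.

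Themis, a signalling protein of developing T cells, had values of 4.78, 5.44 and 4.68 in low-fat control, 4.47, 4.75 and 4.15 in low-fat MSX, 6.60, 6.46 and 6.31 in high-fat control and 5.17, 4.82 and 4.98 in high-fat MSX arrays. The high-fat controls were above all others, and the diets were separated within the MSX state too. The common log2 fold change was 1.01 (SE 0.19, limma adjusted p = 0.241), with 1.49 among control arrays (adjusted p = 0.0258) and 0.53 among MSX arrays. Other T cell markers differed less: Cd3d was at 0.20 (SE 0.11), Cd3g at 0.22 (SE 0.11) and Cd3e at -0.00 (SE 0.09). Of 17 lymphocyte markers, Themis included, 12 were above 0 with a median of 0.13, and 3 (17.6%, against 5.76% of all genes, and 2 to 5 as single arrays were left out) were at an unadjusted p under 0.05: Themis, the cytotoxic granule gene Nkg7 at 0.27 (SE 0.08) and the B cell gene Ms4a1 at 0.31 (SE 0.12). The list values were from -0.12 to 0.01 on the low-fat and from -0.05 to 0.11 on the high-fat diet. The part of lymphocyte number in the Themis value was not tested.

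The other genes of lowest p on the higher side had the following values. Synj2, an inositol phosphatase of membrane traffic, was between 4.76 and 5.20 on the low-fat and between 5.50 and 5.69 on the high-fat diet, a log2 fold change of 0.53 (SE 0.09, limma adjusted p = 0.222). Lrp11 was at 0.46 (SE 0.08), also without overlap, but its second, dimmer probe set gave -0.03 (SE 0.10). Sort1, a sorting receptor that affects lipoprotein secretion, was at 0.58 (SE 0.12) with a dimmer probe set at -0.15 (SE 0.09). Serpinb1a, an inhibitor of neutrophil proteases, was at 0.74 (SE 0.16), and Fam25c at 0.52 (SE 0.11).

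On the lower side, Brap, a BRCA1-binding ubiquitin ligase, was between 9.54 and 10.13 on the low-fat and between 9.18 and 9.42 on the high-fat diet, a log2 fold change of -0.48 (SE 0.09, limma adjusted p = 0.241). Olfm5 and Fbxl6 also had arms that did not overlap, at -0.43 (SE 0.09) and -0.37 (SE 0.08). The phosphatase gene Acpp was at -0.62 (SE 0.13), Carmil1 at -0.59 (SE 0.13), the transporter Abca8a at -0.50 (SE 0.11), Ggt6 at -0.47 (SE 0.10) and Cfap20dc at -0.44 (SE 0.10). Slfn14, at -0.58 (SE 0.13), and the olfactory receptor Olfr243, at -0.48 (SE 0.11), had values of at most 4.02 and 2.41 on any array, low on a scale whose array medians were at least 4.68.

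Precursors of 3 microRNAs were also among the 30 genes. The mature forms held in the RefSeq table are shown because the probe sets name only the hairpin gene and the files do not say which arm a probe set measures. MicroRNAs pair with target transcripts through the seed, bases 2 to 8, in capitals here. Sequences are from RefSeq on GRCm38.p6, at chr4:56895272-56895293 and chr4:56895232-56895252 (minus strand) for miR-32-5p and miR-32-3p, chrX:103572966-103572986 (minus strand) for miR-421-5p, and chr12:109715587-109715608 and chr12:109715624-109715645 (plus strand) for miR-679-5p and miR-679-3p.
miR-32-5p: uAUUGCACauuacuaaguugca
miR-32-3p: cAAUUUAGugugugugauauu
miR-421-5p: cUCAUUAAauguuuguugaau
miR-679-5p: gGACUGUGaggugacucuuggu
miR-679-3p: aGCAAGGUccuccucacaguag

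The 5 seeds differ from each other. Mir32 was between 3.60 and 3.99 on the low-fat and between 4.04 and 4.58 on the high-fat diet, a log2 fold change of 0.50 (SE 0.10, limma adjusted p = 0.241). Mir421 was between 1.63 and 2.02 and between 2.10 and 2.73, a log2 fold change of 0.55 (SE 0.11, limma adjusted p = 0.287). Mir679 was lower, between 4.10 and 4.27 and between 3.56 and 4.03, a log2 fold change of -0.39 (SE 0.09, limma adjusted p = 0.355). The arms did not overlap in any of the 3, and all values lay below the lowest array median of 4.68.

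Several lists had a common median that joined unlike values of the 2 states. Male-biased liver genes, which depend on the male pattern of growth hormone, had 20 of 24 measured genes below 0 and a median of -0.22, made up of -0.44 among control and 0.03 among MSX arrays. Hsd3b5, a male-specific steroid dehydrogenase, was at -0.94 and 0.28 in these states (unadjusted limma p of the difference 0.002), and Slco1a1, an organic anion transporter, at -0.63 and -0.24. Of the 24 genes, 11 were below 0 in both states, and 2 (8.33%, near the 5.76% of all genes) were lower at an unadjusted p under 0.05. That count was 1 to 11 as single arrays were left out, 11 without the second low-fat MSX and 9 without the second high-fat MSX array. Without the first high-fat control array the list median was -0.12, and without the second high-fat MSX array -0.31. Peroxisomal and omega oxidation of fatty acids had 11 of 15 genes above 0 and a median of 0.12, with -0.10 among control and 0.30 among MSX arrays. Without the third low-fat MSX array 9 genes were above 0 with a median of 0.03, and without the third high-fat MSX array the median was 0.05. The thioesterase gene Acot1 was at -0.72 and 0.42 (unadjusted limma p of the difference 0.00021), and the low-fat MSX arrays had the lowest values of both the list and the gene. Mitochondrial oxidation genes had medians of -0.06 and 0.12.

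**Figure D5:**
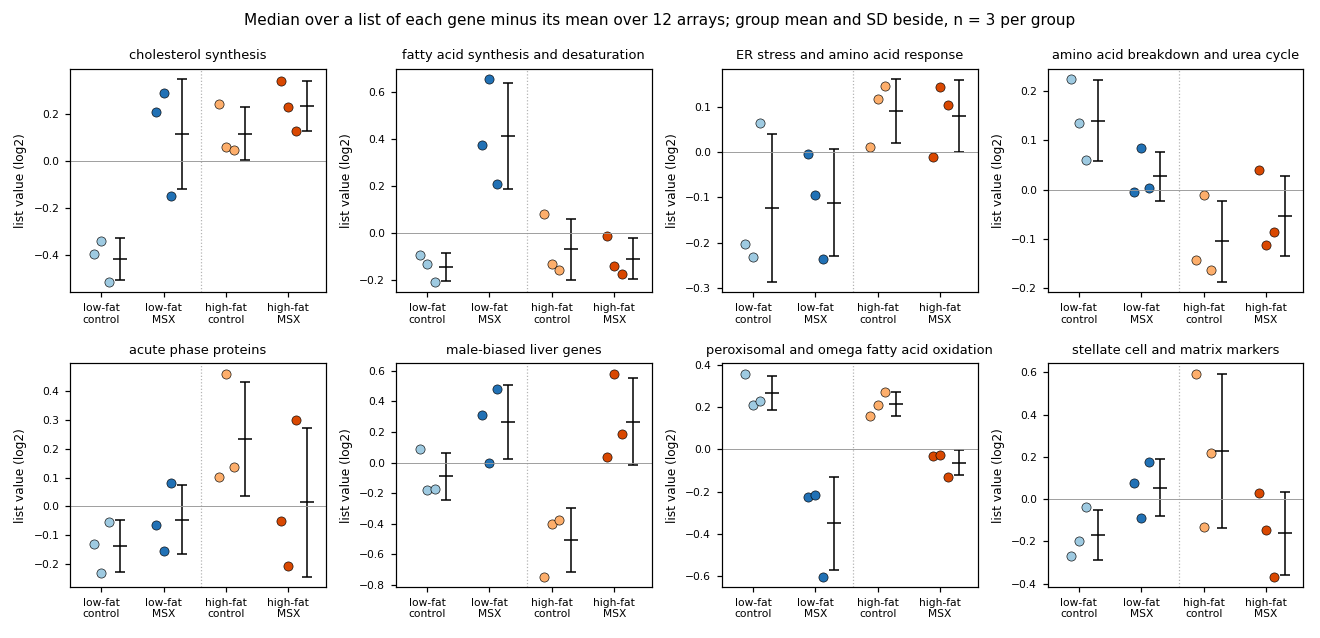
Median over each of 8 lists of every gene's log2 deviation from its mean over 12 arrays, by array and group (4 groups of 3 arrays), with the group mean and SD beside the points. Low-fat controls stand lowest for cholesterol synthesis (-0.51 to -0.34), low-fat MSX arrays highest for fatty acid synthesis (0.21 to 0.65) and lowest for peroxisomal oxidation (-0.60 to -0.22).

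The genes of lowest p for the difference between the states were Csta1, Igfbp2 and Gm2788 on one side and Fasn, Cyp51 and Mir669m-1 on the other, none with an adjusted p under 0.664 in limma. Csta1, of a family of close paralogues that can share probes, had a log2 fold change of -1.14 among control and 0.51 among MSX arrays, and Gm2788 had -0.54 and 0.64. Mir669m-1, of a repeated microRNA cluster, had 0.27 and -1.17. The hepatokine gene Fgf21 was at -0.29 and 0.49 (common value 0.10, 95% interval -0.35 to 0.55). Hepatocyte markers held a median of -0.02 over 10 genes, with list values between -0.07 and 0.05 on all arrays. Cps1 was the only marker at an unadjusted p under 0.05 (10.0% of the list, near the 5.76% of all genes).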

How the data were processed

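Liver RNA from 12 mice was measured on Affymetrix arrays, 1 per sample, in 4 groups of 3. The authors deposited log2 values per probe set, and the submitters' processing notes name the Transcriptome Analysis Console. Which version and normalization they used is not given in the sources, so compression of large differences by that step cannot be judged. Values were used as deposited, with no filter on dim genes. Of 41345 probe sets, 23521 had 1 gene symbol in the platform annotation, 1814 had several and 16010 were not listed there and stay unnamed here. A GRCm38.p6 gene table matched 23328 probe sets by Entrez identifier and changed 0 symbols. The probe set of highest mean was kept per gene, which left 22180 genes.

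Tests used limma 3.58.1 in R 4.3.3 (lmFit and eBayes with default settings, two-sided). The common effect came from an additive model of diet and extract (9 residual and 5.13 prior degrees of freedom). The effects within each state and their difference came from a model of 4 group means (8 and 5.18). Benjamini-Hochberg adjustment ran over all 22180 genes, with a threshold of 0.05. The steps were tested on simulated data. SE is limma's moderated standard error, and the number of arrays limits the precision.

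Lists were described by counts and medians, with no test. Named genes were the 15 per direction with the largest change among genes past the threshold, filled by those of lowest p, without provisional names. Added to these were the 4 of lowest p in each list, the 3 per direction of lowest p for the difference, genes past the threshold within a state, and a panel of 15 genes. The text prints a part of the genes that this rule takes. The members and lists were chosen with earlier results of these data known. Alternatives were a model of 4 group means, the replicate number as a block, quantile normalization, a mean of at least 5, the mean of probe sets, other eBayes settings, array weights and leaving out each array.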

Additional observations from a re-analysis of the deposited data

Results flagged for a closer look

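Among 206 sets of 6 arrays of a diet (the genes and lists named in the text), 8 held an array far from the other 5 of its diet by Dixon's gap test. Such a test picks out about 5% of sets by chance. Gys2 was at 11.2 in the third low-fat control array, against 11.4 to 11.6 in the others. Psat1 was at 4.88 in the third high-fat control array, against 4.14 to 4.34. Ephx1 was at 10.1 and Acpp at 6.74 in the first high-fat MSX array, against 10.5 to 10.7 and 5.88 to 6.20. Cd3e was at 5.52 in the second low-fat control array, against 4.97 to 5.07, and the lymphocyte list value there was 0.0055, against -0.12 to -0.08. The collagen gene Col1a1 was at 7.05 in the third low-fat MSX array, against 6.39 to 6.60. The list of mitochondrial fatty acid oxidation was at 0.10 in the third high-fat control array, against -0.04 to 0.01.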

How the results depend on the processing

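The count of 0 genes for the common diet effect held under every alternative except 2: the model of 4 group means called 5 genes, and leaving out 1 array gave 0 to 1 (Got1, without the first low-fat MSX array). Without extract the count of 4 was 11 with a mean of at least 5 and 11 with an intensity trend and robust settings, and 1 to 7 as single arrays were left out. It was 1 without the third low-fat control array, and 7 without the second or the third low-fat MSX array. With extract it was 0 to 1 (Egr1, without the second low-fat MSX array), and for the difference 0 to 1 (Cyp2c39, without the first high-fat MSX array). The cause of these changes was not tested.

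Same-numbered arrays did not deviate together: their residuals correlated with r from -0.126 to 0.112 over 18 pairs, 2 of them above 0.1, so the numbers were not taken to pair the samples. With the replicate number as a block the counts were 0 for the common effect, 0 for the difference, 5 without and 0 with extract.

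Of 1581 recomputed fold changes of 84 genes, 1554 kept direction and side of the threshold, 6 newly passed it and 21 changed sign (in 7 genes, named next). With array weights Fasn was at -0.0731 and Cd3e at 0.0109. As single arrays were left out, Fasn ranged from -0.178 to 0.175, Cd3e from -0.0495 to 0.0727, Cyp7a1 from -0.221 to 0.285, Gm2788 from -0.109 to 0.142, Fgf21 from -0.0475 to 0.261, Cidec from -0.195 to 0.295 and Col1a1 from -0.00478 to 0.467. Of 739 recomputed list medians, 8 moved by more than the SD within groups.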

Other observations

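The early response gene Egr1, a transcription factor outside the lists and chosen after its values were seen, had a common log2 fold change of 1.20 (SE 0.28, limma adjusted p = 0.373). Unlike most genes of the report it differed more among MSX arrays, by 1.84, than among control arrays, by 0.55 (unadjusted p of the difference 0.0161 in limma). Aldh1a1, a retinaldehyde dehydrogenase chosen in the same way, was at 0.36 (SE 0.08, limma adjusted p = 0.355). It differed by 0.37 among control and 0.35 among MSX arrays, and all 6 high-fat arrays lay above all 6 low-fat arrays. Over 21 genes with female-biased liver expression the median was 0.05, with 0.15 among control and -0.04 among MSX arrays. Nuclear genes of the respiratory chain had a median of -0.04 over 23 genes. Of them 0 were at an unadjusted p under 0.05, against 5.76% of all genes.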
